A study of Mus musculus with 43 samples.

Results

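Tudor domains are folded modules that hold a methylated arginine (or lysine) of a partner protein in an aromatic cage. The genes of 10 proteins with such domains were examined, out of 55401 gene identifiers in the expression tables: Tdrd1, Tdrd5, Tdrd6, Tdrd7, Tdrd9, Tdrd12 and Tdrkh, whose products work with PIWI proteins in the germ granules of male germ cells, and Tdrd3, Smn1 and Snd1, which are used in most tissues. They were chosen by name, by their GENCODE vM21 symbol, and all 10 were found in every table. The gene tables came from postnatal day 7 (P7) mouse testes, and the promoter peak lists came from P7 and P14.

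In the Prmt1-dKO mice, exons 4 and 5 of both Prmt1 alleles were flanked by loxP sites and removed in germ cells by tamoxifen, given on 3 days, through a CreERT2 that is driven by the Ddx4 locus and linked to EGFP, on a C57BL/6J background. Bulk RNA-seq was done on total testis RNA of 3 WT and 3 Prmt1-dKO samples, although their labels name spermatogonia as the cell type. Smart-seq2 was done on EGFP-positive spermatogonia from 2 WT and 2 Prmt1-dKO samples, and the study's methods describe the controls of this sort as heterozygous carriers of the floxed allele with the same CreERT2 rather than as WT. CUT&Tag, an antibody-guided tagging of chromatin, gave 33 peak lists from testis cell suspensions that were not sorted. These were 15 lists of WT testes at P7, 2 of Prmt1-dKO testes at P7 (H4R3me2s only) and 16 of WT testes at P14. The paper describes removal of interstitial cells by digestion and of Sertoli cells with a strainer, and reports mostly germ cells in the P7 filtrate. The peak lists therefore do not describe whole testis as the bulk RNA does. The P14 samples are titled as spermatogonia and characterised as spermatocytes, and the peak names of the 3 H4R3me2s lists at P14 carry the number 17, so their age rests on the labels alone.

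PRMT1 adds the second, asymmetric methyl group to arginines (me2a), whereas PRMT5 makes symmetric dimethylarginine (me2s). Tudor domains of TDRD1, SMN1 and SND1 bind mainly symmetric dimethylarginine, on PIWI proteins or on the Sm proteins of the spliceosome, and TDRD3 prefers asymmetric marks such as those on histone H4 arginine 3 (H4R3me2a). In the germ line, Tudor proteins assemble the granules in which piRNAs, the small RNAs that silence transposons, are made.

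The bulk libraries held 12396317 to 16598233 counts and the Smart-seq2 libraries 15610354 to 18547078. The targeted gene checks the labels only in part, since its count covers the whole gene and exons 4 and 5 alone are deleted. Prmt1 stood at 652, 604 and 638 TPM (a share of all transcripts, scaled by length) in WT testes and at 410, 433 and 402 TPM in Prmt1-dKO testes, without overlap. Its count fell with a log2 fold change of -0.49 (SE 0.13, FDR = 0.0334, edgeR's quasi-likelihood test). In sorted cells Prmt1 stood at 350 and 239 TPM in WT and at 179 and 151 TPM in Prmt1-dKO libraries (log2 fold change -0.88, SE 0.26, FDR = 0.133). Of the marker lists, Sertoli cell genes summed to 4697 to 5107 TPM in WT and 3141 to 3454 TPM in Prmt1-dKO testes, Leydig cell genes to 624 to 724 and 164 to 185 TPM, and peritubular genes to 827 to 900 and 290 to 507 TPM. Germ cell markers summed to 1428 to 1685 TPM in WT and 1335 to 1433 TPM in Prmt1-dKO testes. Spermatocyte markers summed to 107 to 131 TPM in WT and 124 to 145 TPM in Prmt1-dKO testes. In bulk tissue, fewer cells of a type and less RNA per cell cannot be told apart. The Ddx4 locus itself carries the CreERT2 insertion, so Ddx4, one of the germ cell markers, is a poor marker here.

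Promoter sequences are shown first for the 4 genes in which the position of a peak or the spread of values matters below. All are the 250 bases before a RefSeq start on build GRCm38, read 5′ to 3′ on the strand of the gene. Capitals mark motif matches on either strand. The E box was searched as CACGTG, the box bound by NF-Y as CCAAT, and the GC box as GGGCGG. The TATA box was searched as TATAAA, the E2F motif was searched as TTCCCGC, the cyclic AMP response element (CRE) was searched as TGACGTCA, and the MYB core was searched as CNGTTG. Tdrd7 is shown at its outer start (chr4:45965085-45965334, plus strand) and at its inner start (chr4:45972047-45972296, plus strand), since H3K4me3 lay at the inner one alone. Tdrkh (chr3:94412994-94413243, plus strand) had the highest level in sorted cells. Tdrd1 (chr19:56825959-56826208, plus strand) had the fewest peaks. Tdrd9 (chr12:111971309-111971558, plus strand) had H3K4me3 at P14 only.
Tdrd7 outer: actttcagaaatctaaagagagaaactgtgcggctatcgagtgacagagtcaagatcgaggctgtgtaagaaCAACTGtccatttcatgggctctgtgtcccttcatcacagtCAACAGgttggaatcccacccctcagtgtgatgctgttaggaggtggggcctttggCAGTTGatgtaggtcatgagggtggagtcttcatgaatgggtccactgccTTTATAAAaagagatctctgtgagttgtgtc
Tdrd7 inner: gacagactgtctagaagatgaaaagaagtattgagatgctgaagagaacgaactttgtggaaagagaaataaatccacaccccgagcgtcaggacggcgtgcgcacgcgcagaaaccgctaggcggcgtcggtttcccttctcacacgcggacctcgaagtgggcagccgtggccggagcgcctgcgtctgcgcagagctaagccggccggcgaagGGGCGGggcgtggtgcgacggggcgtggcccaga
Tdrkh: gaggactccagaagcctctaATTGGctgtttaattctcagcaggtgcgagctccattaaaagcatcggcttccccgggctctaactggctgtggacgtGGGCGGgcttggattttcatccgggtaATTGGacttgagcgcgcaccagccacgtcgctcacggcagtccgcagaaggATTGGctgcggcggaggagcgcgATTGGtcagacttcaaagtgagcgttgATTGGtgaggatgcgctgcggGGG
Tdrd1: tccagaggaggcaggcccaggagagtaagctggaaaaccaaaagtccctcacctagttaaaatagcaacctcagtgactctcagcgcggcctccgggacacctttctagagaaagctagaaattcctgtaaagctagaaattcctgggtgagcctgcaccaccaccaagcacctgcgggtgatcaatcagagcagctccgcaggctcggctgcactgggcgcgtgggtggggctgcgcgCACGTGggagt
Tdrd9: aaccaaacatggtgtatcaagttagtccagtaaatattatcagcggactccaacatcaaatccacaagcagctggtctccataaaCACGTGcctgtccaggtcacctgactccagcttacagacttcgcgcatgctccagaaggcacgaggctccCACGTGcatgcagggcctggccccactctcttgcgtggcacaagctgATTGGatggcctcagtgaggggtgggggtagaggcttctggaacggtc

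The RefSeq table held promoters of 9 of the 10 genes (15 promoters of 300 bases, with 50 bases after the start). The 2 Tdrd7 promoters shown differed in composition: the outer one held 4 CpG dinucleotides in 300 bases and TATA box letters on both strands, overlapping, with the forward match starting 29 bases before the start, and the inner one held 32 CpG dinucleotides, 2 GC boxes (the second starts at the first transcribed base and is not printed) and no TATA box. The median of all 32851 promoters was 7 CpG dinucleotides (quartiles 3 and 20). The Tdrkh promoter held 5 CCAAT boxes, all read on the opposite strand, and 2 GC boxes, the second of which crosses the start. At least 1 CCAAT box stood in 37.4% and at least 1 GC box in 35.7% of all promoters. The Snd1 promoter also held 2 CCAAT and 2 GC boxes. Tdrd1 held 1 E box, 11 bases before its start, and Tdrd9 held 2 E boxes, 165 and 95 bases before its start, a motif present in 7.2% of all promoters. The TATA box was present in 13.6%, the MYB core in 35.0%, the E2F motif in 4.6% and the CRE in 1.8% of promoters. The MYB core was found in Tdrd5, Tdrd12, Tdrd7 (not at the inner promoter shown) and 1 of the 2 Smn1 promoters. These matches describe letters, and whether any factor uses them was not tested.

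The first comparison asked how strongly each reader is used in the young testis and in the sorted spermatogonia, with levels given in TPM, which accounts for transcript length. In WT testes Snd1, a transcriptional coactivator and RNA-binding nuclease (ENSMUSG00000001424, chromosome 6), was highest with 84.5, 87.7 and 85.0 TPM. Tdrkh followed with 46.9 to 52.3 TPM, Smn1, the assembly factor of spliceosomal particles, with 34.9 to 42.2 TPM, and Tdrd7 with 29.1 to 32.4 TPM. The ranges of these 4 genes did not overlap. Tdrd1, the granule scaffold that binds PIWI proteins, had 24.6 to 30.6 TPM and overlapped with Tdrd7. Tdrd3 (22.0 to 24.5 TPM) and the helicase gene Tdrd9 (20.7 to 27.1 TPM) overlapped with each other. Tdrd5, whose product helps to build the chromatoid body, had 14.6 to 18.0 TPM, and Tdrd12, the gene of a second helicase-like piRNA factor, had 10.7 to 13.4 TPM. Tdrd6, a chromatoid body gene of later germ cells, was close to nothing at 0.11, 0.10 and 0.08 TPM, from 7, 7 and 6 counts.

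The order was different in sorted WT spermatogonia. Tdrkh, which anchors PIWI proteins at the outer mitochondrial membrane for piRNA trimming, led with 252 and 191 TPM, above 96.5% of protein-coding genes on the mean. Smn1 had 89.4 and 41.4 TPM, and Tdrd12 had 63.1 and 47.7 TPM. Smn1 varied by more than the distance to Tdrd12, so these neighbours were not separable. Tdrd7 (25.1 and 29.3 TPM), Tdrd9 (20.0 and 25.1), Snd1 (25.5 and 13.5), Tdrd1 (15.1 and 16.2) and Tdrd5 (10.3 and 17.4) followed. Tdrd3 was low at 4.06 and 11.0 TPM, and Tdrd6 was at 0 in both libraries. The means of testes and sorted cells were 49.5 and 222 TPM for Tdrkh, 11.8 and 55.4 TPM for Tdrd12, 85.7 and 19.5 TPM for Snd1, and 23.2 and 7.54 TPM for Tdrd3. The 2 assays differ in cells, RNA input, library chemistry and, by the study's methods, the genotype of the controls. These values therefore stand side by side and were not tested.

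**Figure D1:**
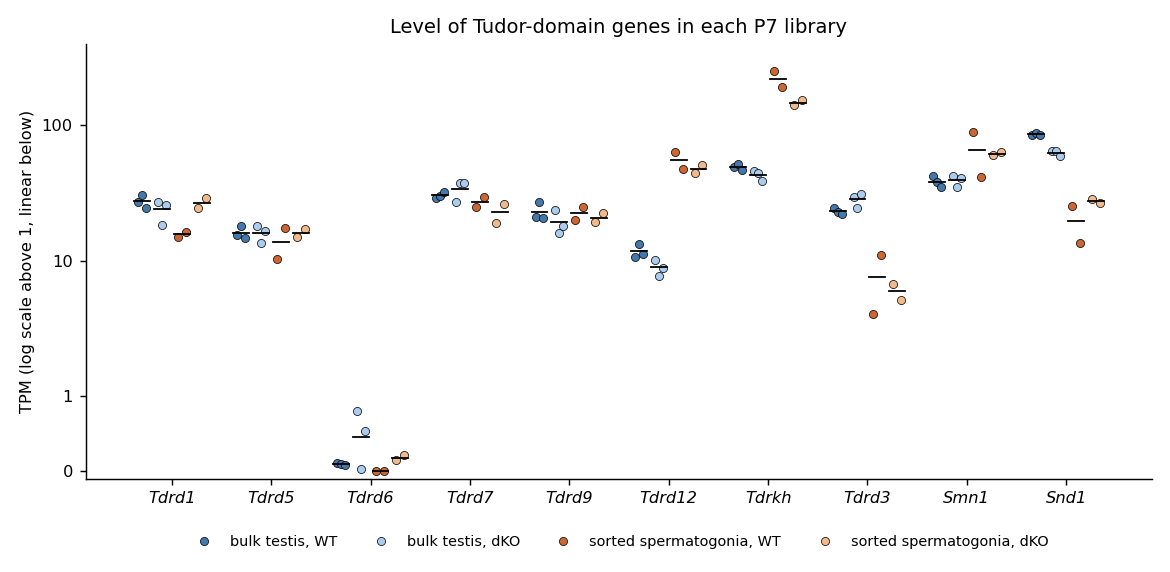
Level of each Tudor-domain gene in the 10 P7 libraries, in TPM (log scale above 1, linear below). Points are single libraries, coloured by assay and genotype, and bars are group means. Tdrkh and Tdrd12 lie higher in the sorted cells, Snd1 and Tdrd3 lie higher in the testes, and Tdrd6 stays under 1 TPM everywhere.

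In whole testes the loss of Prmt1 moved none of the readers past the threshold. Of the 9 tested genes (Tdrd6 had too few counts), 0 passed an FDR of 0.05 by edgeR, against a background of 19.1% of the 16554 genes tested. At an unadjusted p under 0.05 edgeR had 1 of the 9, Snd1, beside 33.9% of all genes, and DESeq2 passed the same gene, beside 18.3% of all genes. The standard errors of the 9 log2 fold changes lay between 0.098 and 0.141. Snd1 was the only one of the 9 whose scaled counts did not overlap between genotypes, a pattern that 40.8% of all tested genes had. Its TPM was 84.5, 87.7 and 85.0 in WT and 64.5, 65.1 and 59.6 in Prmt1-dKO testes, and its count had a log2 fold change of -0.31 (SE 0.098, edgeR FDR = 0.0578). DESeq2 gave -0.33 (adjusted p = 0.0178), and the call was also made by edgeR without Prmt1-dKO replicate 2 (-0.36). That fit passed 2784 genes upward and 2578 downward of 16971, beside 1749 and 1409 of 16554 with all libraries. Since Snd1 overlaps 4 other annotated genes, 1 of them the protein-coding Lrrc4, and the sources used here do not say whether counting kept the strand, a share of its reads may belong to those genes.

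The remaining 8 genes had small differences in either direction. Among the granule genes, Tdrd5 (0.13, SE 0.11) and Tdrd7 (0.14, SE 0.11) had positive log2 fold changes, and Tdrd12 (-0.12, SE 0.14), Tdrkh (-0.12, SE 0.13), Tdrd9 (-0.11, SE 0.12) and Tdrd1 (-0.05, SE 0.12) had negative ones. Smn1 had 0.17 (SE 0.11) and Tdrd3 -0.09 (SE 0.12). All overlapped between genotypes by scaled count, whereas by TPM Tdrkh (46.9 to 52.3 in WT, 39.2 to 45.8 in Prmt1-dKO) and Tdrd12 (10.7 to 13.4 and 7.71 to 10.2) did not. With Snd1 that made 3 of the 9, against 38.8% of all tested genes by TPM. Tdrd6 had 14, 2 and 9 counts in Prmt1-dKO testes, a range that spans the WT counts of 7, 7 and 6. The Sertoli, Leydig and peritubular marker sums given above differed by genotype without overlap beside these values, and their part in them was not tested.

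The estimated make-up of transcripts was compared as well. RSEM estimates for each gene a mean transcript length from the isoforms it assigns. For Tdrd3, a partner of topoisomerase TOP3B and a reader of H4R3me2a, that length was 2981, 3032 and 2855 bases in WT testes and 2235, 1950 and 2138 bases in Prmt1-dKO testes. The 2 ranges did not overlap. Tdrd12 ranged from 1744 to 1884 bases in WT and from 1919 to 1936 bases in Prmt1-dKO testes, also without overlap. Of all tested genes, 17.1% had lengths that did not overlap, or 21.1% of those whose length varied at all, so 2 of the 9 tested readers is close to the background. The counts of Tdrd3 were 639, 658 and 611 in WT and 530, 420 and 662 in Prmt1-dKO testes, while the TPM of Tdrd3, which divides by length, was 22.0 to 24.5 and 24.4 to 31.4. With the transcript length entered as an offset, an alternative chosen after seeing the data, the log2 fold change of Tdrd3 turned from -0.09 to 0.39 (SE 0.12, edgeR FDR = 0.057). Isoform shares are model estimates from short reads, and the lengths carry no test. Tdrd3 overlaps 3 other annotated genes, none of them protein-coding.

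**Figure D2:**
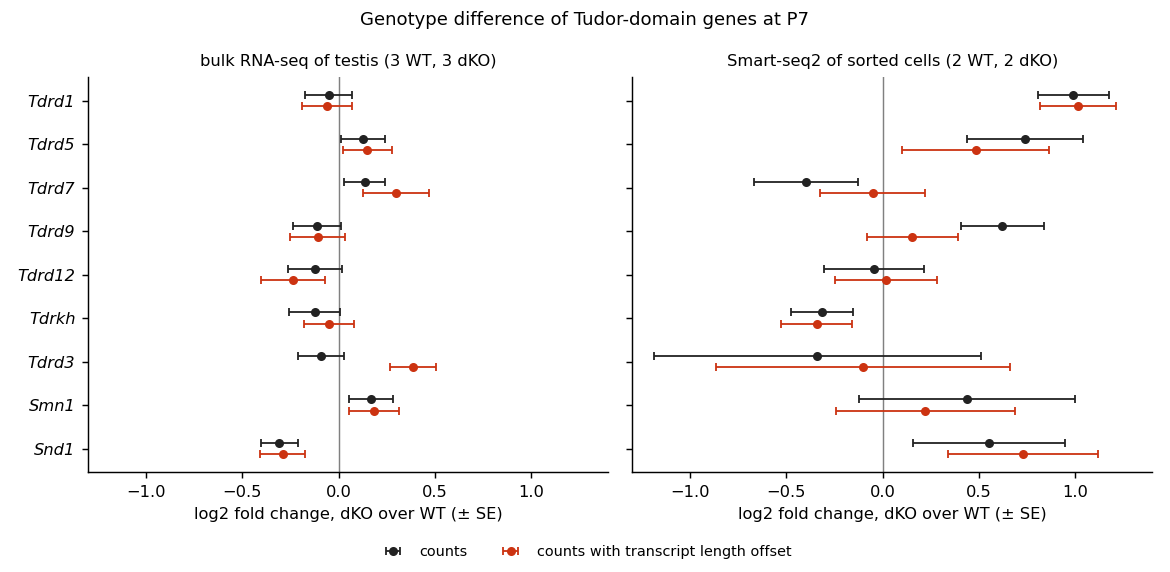
Log2 fold change of 9 genes, Prmt1-dKO over WT, from edgeR, with bars of 1 standard error. Black points use the counts alone and red points add RSEM's mean transcript length as an offset. In the testis all black points lie within 0.31 of 0, and Tdrd3 changes sign with the offset. In sorted cells Tdrd1 lies near 1 in both fits and Tdrd9 moves from 0.62 to 0.15. Tdrd6 is left out, since its WT sorted libraries held no count.

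In sorted spermatogonia no reader passed the threshold, and Tdrd1 had the smallest p. With 2 libraries a genotype, edgeR passed 0 of the 10 readers and 0.0% of the 16443 genes tested. At an unadjusted p under 0.05 it had 3 of the 10 readers (Tdrd1, Tdrd9 and Tdrd6, the last of which passed the count filter only through the Prmt1-dKO libraries) and 3911 genes in all, and DESeq2 passed 1 reader (Tdrd1) and 2468 genes (23.8% of all genes at that p, and 14.6% by DESeq2). The biological coefficient of variation was 0.767, against 0.155 in bulk. Over all tested genes the median log2 fold change stood at 0.15. Of the 10 readers, 6 did not overlap between genotypes, against 56.6% of all tested genes: Tdrd1, Tdrd5, Tdrd6 and Tdrd9 were higher and Tdrd7 and Tdrkh lower by scaled count in the Prmt1-dKO libraries. The share is close to that of all genes, and Tdrd6 had no count in WT.

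For Tdrd1, WT spermatogonia gave 1103 and 1174 counts, or 15.1 and 16.2 TPM, and Prmt1-dKO spermatogonia gave 1776 and 1825 counts, or 24.5 and 29.0 TPM. The genotypes did not overlap on either scale. Its log2 fold change was 0.99 (SE 0.18, edgeR FDR = 0.0774), and DESeq2 gave 0.94 (adjusted p = 0.00203). Leaving out a WT library gave 0.95 and 1.06, and leaving out a Prmt1-dKO library gave 1.05 and 0.92. These fits assume the lone library of a genotype to vary like those of the other. They therefore cannot decide whether Tdrd1 passes.

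No WT library held a Tdrd6 read (0 counts), and the Prmt1-dKO libraries held 15 and 18. Set against an assumed floor of 3 counts over the WT group, that is 12.3-fold, at a level of only 0.15 and 0.21 TPM. The WT libraries also held fewer genes with a count, 17106 and 15587 beside 21404 and 20194. Since Tdrd6 passed the count filter only through the Prmt1-dKO libraries, no minimum fold change is drawn from these counts. Tdrd5 gave 553 and 598 counts in WT beside 719 and 810 in Prmt1-dKO cells (log2 fold change 0.74, SE 0.30, edgeR FDR = 0.24). Its log2 fold change was 0.69 and 0.82 without WT replicates 1 and 2, and 0.87 and 0.60 without Prmt1-dKO replicates 1 and 2. With 1 library of a genotype left, these fits cannot decide whether Tdrd5 passes. By TPM its libraries overlapped, with 10.3 and 17.4 against 14.9 and 17.3.

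For Tdrd9, a helicase that acts with the nuclear PIWI protein, count and TPM pointed in different directions. It was counted 1094 and 978 times in WT beside 1341 and 1201 times in Prmt1-dKO cells (log2 fold change 0.62, SE 0.21, edgeR FDR = 0.175), and its TPM was 20.0 and 25.1 in WT and 19.2 and 22.4 in Prmt1-dKO cells. Its mean transcript length was 3728 and 2767 bases in WT and 4756 and 4247 bases in Prmt1-dKO cells. Lengths did not overlap for 5 of the 9 readers counted in every sorted library (Tdrd9 and Smn1 longer, Tdrd7, Tdrd12 and Snd1 shorter in Prmt1-dKO), against 34.7% of all tested genes, or 45.4% of those whose length varied. With the length offset the log2 fold change was 0.15 (SE 0.24). On counts alone it was 0.71 and 0.57 without WT replicates 1 and 2, and 0.59 and 0.66 without Prmt1-dKO replicates 1 and 2. With 1 library of a genotype left, these fits cannot decide whether Tdrd9 passes. Tdrd9 overlaps the protein-coding gene Rd3l on the opposite strand.

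**Figure D3:**
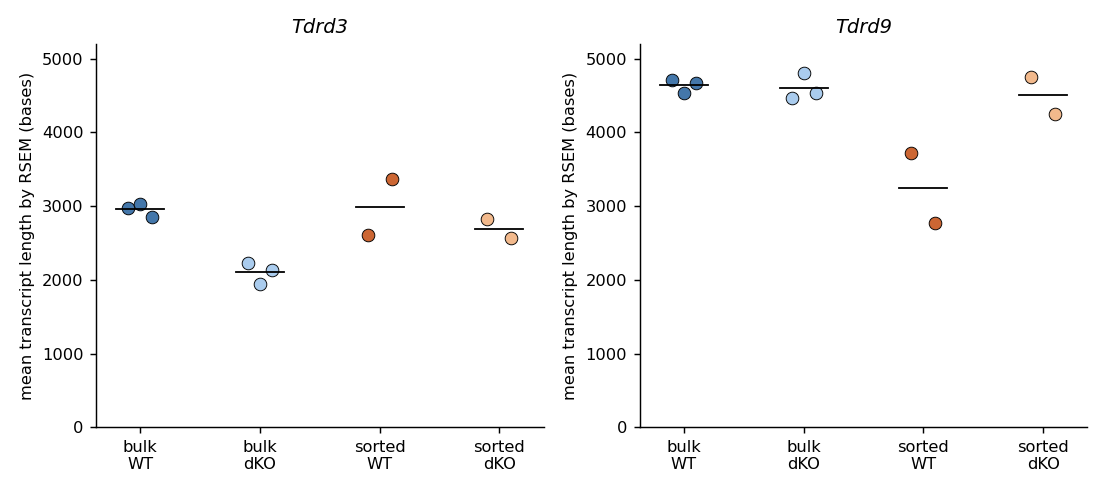
Mean transcript length of Tdrd3 and Tdrd9 by RSEM, in bases, for each P7 library, with bars at the group means. Tdrd3 lies between 2855 and 3032 bases in WT testes and between 1950 and 2235 bases in Prmt1-dKO testes. Tdrd9 lies between 4464 and 4809 bases in the testes and is shortest in the WT sorted cells.

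Tdrkh and Tdrd7 were the 2 readers whose scaled counts were lower in Prmt1-dKO cells without overlap. The counts of Tdrkh were 5071 and 4213 (252 and 191 TPM) in WT, and 3046 and 2909 (141 and 153 TPM) in Prmt1-dKO cells, a log2 fold change of -0.31 (SE 0.16, edgeR FDR = 0.346) after scaling. It overlaps 3 annotated genes, among them Oaz3. Tdrd7 had -0.40 (SE 0.27) by count and -0.05 with the length offset. Its TPM overlapped, with 25.1 and 29.3 in WT and 19.0 and 26.4 in Prmt1-dKO cells. Tdrd12 was level at -0.05 (SE 0.26).

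The 3 broadly used readers differed most between the WT libraries themselves. Smn1 had 89.4 and 41.4 TPM in WT and 60.2 and 63.5 TPM in Prmt1-dKO cells, so that its log2 fold change was 1.43 without WT replicate 1 and -0.12 without WT replicate 2. Snd1 had 25.5 and 13.5 TPM in WT and 28.4 and 26.6 TPM in Prmt1-dKO cells, and its log2 fold change of 0.55 (SE 0.39) was 1.11 without WT replicate 1 and 0.18 without WT replicate 2. Tdrd3 had 4.06 and 11.0 TPM in WT and 6.73 and 5.16 TPM in Prmt1-dKO cells, and its log2 fold change of -0.34 (SE 0.85) went to -0.96 without WT replicate 1 and to 0.86 without WT replicate 2. Without WT replicate 1 all 3 passed the edgeR threshold, in a fit that rests on the lone WT library left, but so did 51.2% of all genes in that fit, and without WT replicate 2 none of the 3 did.

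Sums of marker genes of other cells differed between the sorted libraries, not all in 1 direction. Macrophage genes summed to 0 TPM in both WT libraries (5 of 5 at 0) and to 10.5 and 13.5 TPM in the Prmt1-dKO libraries, with 4 of 5 detected. Endothelial genes summed to 0 TPM and to 1.04 and 1.09 TPM. Sertoli cell genes summed to 273 and 243 TPM in WT and 339 and 461 TPM in Prmt1-dKO libraries, in order of replicate. Of these sums Clu alone gave 118 and 110 TPM and 216 and 274 TPM. Rhox5 was lower in Prmt1-dKO (11.2 and 10.3 TPM, then 2.40 and 6.52 TPM). Leydig cell genes overlapped, with 0.12 and 6.97 TPM and with 4.74 and 8.13 TPM. Peritubular genes summed to 4.61 and 7.95 TPM in WT and to 3.76 and 4.06 TPM in Prmt1-dKO libraries. Spermatocyte markers stood at 645 and 646 TPM in WT and 345 and 383 TPM in Prmt1-dKO libraries, and germ cell markers at 1382 to 1419 and 1849 to 1853 TPM. Over the 10 germ cell markers the median log2 fold change was 0.93 in sorted cells and 0.87 in the interaction, beside 0.15 and 0.22 for all genes and 0.99 and 1.13 for Tdrd1. The WT libraries held 17106 and 15587 genes with a count and the Prmt1-dKO libraries 21404 and 20194. The part of these differences in the values of Tdrd1, Tdrd6 or any other reader was not tested.

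Whether the genotype difference was the same in both assays was tested as an interaction over all 10 libraries. The log2 fold change of Tdrd1 was 1.13 higher in sorted cells than in testes (SE 0.21, edgeR FDR = 0.00582). Tdrd9 was 0.82 higher (SE 0.22, edgeR FDR = 0.0316), and these were 2 of the 9 readers other than Tdrd6, against 19.0% of the 19608 genes tested. Tdrd6 entered this fit only through the sorted Prmt1-dKO libraries in which it is high, so its FDR of 0.0152 by edgeR is not counted as a test. With the length offset only Tdrd1 passed (1.18, FDR = 0.00661), while Tdrd9 was at 0.37 (FDR = 0.382). Tdrd5 (0.70) and Snd1 (0.94) had FDRs of 0.0829 and 0.0918. The interaction compares cells, chemistry and, by the study's methods, the genotype of the controls at once, and those cannot be told apart.

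The partners of the readers were counted by list, to be read against the shares of all genes that passed, 19.1% in testes, 0.0% in sorted cells and 19.0% for the interaction, and that DESeq2 passed, 18.3% in testes and 14.6% in sorted cells. At an unadjusted p under 0.05 edgeR had 33.9% of all genes in testes and 23.8% in sorted cells. Of 15 piRNA and germ granule genes tested in the testis, 2 rose and 1 fell by edgeR, a share close to the 19.1% of all tested genes that passed. At an unadjusted p under 0.05 edgeR had 7 of the 15, and DESeq2 passed 4, both larger shares than those of all genes. Ddx25 (0.58, SE 0.12), a helicase gene of male germ cells, and Gtsf1 (0.62, SE 0.16), a PIWI partner, were higher, and Ddx4, the locus that carries the CreERT2, was lower (-0.67, SE 0.16). The median log2 fold change of the list was 0.19, beside 0.02 for all genes. In sorted cells Spocd1, a gene of piRNA-directed DNA methylation, was at 0 in both WT libraries and entered the fit only through the Prmt1-dKO libraries, so it is not counted. Of the other 14, edgeR passed 0 (1 at an unadjusted p under 0.05, 1 by DESeq2, both Mael), with a median of 0.14 beside 0.15 for all genes. Mael, a germ granule gene, had 0.70 (SE 0.16).

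Of 4 other Tudor genes (Rnf17, Stk31, Akap1 and Smndc1), edgeR passed 0 in testes (0 at an unadjusted p under 0.05, 0 by DESeq2) and 0 in sorted cells (1 and 0). In testes Akap1, a mitochondrial anchor protein gene, had -0.21 and Rnf17 -0.17, and in sorted cells Rnf17 had -0.44 and Akap1 1.20. The interaction passed for 1 of the 4, Akap1 (edgeR FDR = 0.0284), whose difference between the assays was positive.

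Of the 12 genes tested for the SMN complex and Sm proteins, 1, Gemin4, fell in testes (-0.41, SE 0.11, edgeR FDR = 0.036), where 19.1% of all tested genes passed. In sorted cells edgeR passed 0 of them (3 at an unadjusted p under 0.05, 2 by DESeq2), with Strap at -0.71 (SE 0.14) and Gemin5 at -0.52 (SE 0.16). The list's median was -0.01 in testes and 0.03 in sorted cells. The interaction passed for 2 of the 12, Coil (1.35) and Strap (-0.58), a share close to that of all genes.

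Among 12 arginine methyltransferases and cofactors, Prmt1 was the only gene that passed in testes, where 19.1% of all tested genes passed. In sorted cells edgeR passed 0 (1 at an unadjusted p under 0.05, which was Prmt1, and 1 by DESeq2). Riok1, with 0.90 (SE 0.38), had the next smallest p and was not under 0.05. For TDRD3's partners Top3b, Fmr1, Fxr1 and Fxr2, edgeR passed 0 of 4 in both assays (0 at an unadjusted p under 0.05, 0 by DESeq2 in each). Top3b (0.15) and Fxr1 (0.19) had the smallest p in testes, and Fxr1 (-0.69) and Fmr1 (-0.43) in sorted cells.

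The promoter question was which histone marks the peak lists place at the starts of these genes, and at which age. The term marked is used for a gene with a peak summit within 3000 bp of any annotated start in 2 or more replicate lists. For the 5 arginine marks in WT testes, 13 of 50 pairs of gene and mark were marked at P7 and 35 of 50 at P14. Over all 21951 protein-coding genes the share per mark was 9.71% to 17.8% at P7 and 29.9% to 51.3% at P14. Among the 13712 protein-coding genes with a mean of at least 1 TPM in WT testes the shares were 14.3% to 26.5% and 43.3% to 69.5%. The arginine lists held 18423 to 55908 peaks at P14 and 15361 to 36145 at P7, and for H4R3me2s the longest P7 list held more peaks than any P14 list. When every list was shortened to its best 15361 peaks, 11 and 28 pairs were marked, and the share of protein-coding genes per mark was 6.74% to 13.1% at P7 and 18.8% to 29.1% at P14. With 2 or 3 lists a group and unknown read numbers, the counts carry no test.

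At P7, H4R3me2a, the product of PRMT1 on histone H4, marked 2 readers, Tdrd3 and Snd1 (15.3% of protein-coding genes). This count was 0 without replicate 1 (8.2% of genes) and 1 without replicate 2 or 3 (7.8% each). For the other marks at P7, a peak in the 1 list left was then enough. The counts, without replicate 1 and 2 in turn, were 4 and 5 for H4R3me1 (22.3% and 25.3%). They were 5 and 3 for H3R2me2a (24.1% and 24.3%) and 3 and 1 for H3R8me2a (21.5% and 21.1%). For H4R3me2s the count was 5 in both cases (33.7% and 33.1%). With both lists required, the other marks gave the following. H4R3me1 marked Tdrd5, Tdrd3 and Snd1 (10.8%), H3R2me2a marked Tdrd7, Tdrd3 and Snd1 (11.0%), and H3R8me2a marked Tdrd3 alone (9.71%). H4R3me2s marked Tdrd7, Tdrkh, Smn1 and Snd1 (17.8%). The active promoter mark H3K27ac lay at 6 readers (31.0%) and H3K4me3 at 7 (60.7%), the latter missing at Tdrd1, Tdrd9 and, in 1 of 2 lists, Tdrd12.

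At P14, H4R3me2a lay at 9 of 10 readers (49.0%), as did H3R2me2a (51.3%) and H3K4me3 (63.1%). Tdrd1 was the one without. H3K27ac lay at 8 readers (48.9%), all but Tdrd1 and Tdrd6. H3R8me2a marked 7 (33%), H4R3me2s 5 (34.2%) and H4R3me1 5 (29.9%). Tdrd6 had H3K4me3 in all 4 lists of both ages, with under 1 TPM at P7 (no P14 RNA was analysed here), and its H4R3me2a peaks appeared in 2 of 3 lists at P14 and in 0 of 3 at P7.

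**Figure D4:**
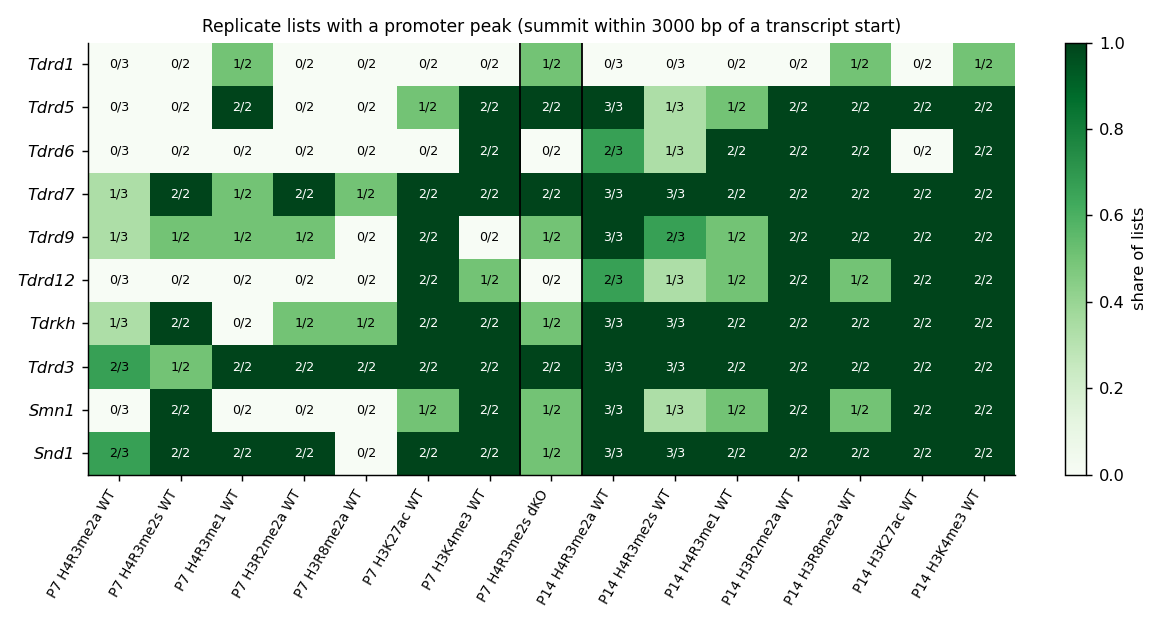
Number of replicate lists with a promoter peak, out of the lists made, for each gene (rows) and each mark, age and genotype (columns). Darker green is a larger share of lists. Tdrd3 is filled in nearly every column, Tdrd1 is nearly empty, and the P14 columns on the right are fuller than the P7 columns on the left.

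The readers fell into a wide range. Tdrd3 had a promoter peak in 31 of 33 lists and in 23 of the 25 arginine lists, Tdrd7 and Snd1 in 29 of 33, and Tdrkh in 26. Tdrd1 had one in 4 of 33. The median over the 10 readers was 20.5 lists, beside 13 for all protein-coding genes and 19 for those with at least 1 TPM. At Tdrd3 the 4 H3K4me3 summits lay 226 to 525 bp before its first start (chromosome 14, 87416639), and 22 of its 23 arginine summits with the smallest p also lay before that start.

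Tdrd1 was the exception. At its main start (chromosome 19, 56826209) only 1 list held a promoter peak of H3K4me3, at P14, with a summit 60 bp before the start and a rank at 88.3% of that list by p. Its arginine peaks came from 3 lists, each of a different mark, namely P7 H4R3me1, P7 Prmt1-dKO H4R3me2s and P14 H3R8me2a (2 peaks in that list). No mark was repeated between replicates. Yet its RNA at P7 stood at 24.6 to 30.6 TPM in whole WT testes and at 15.1 and 16.2 TPM in sorted WT spermatogonia.

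Marks did not always lie at the outermost annotated start. All 4 H3K4me3 summits of Tdrd7 lay 7137 to 7195 bp inside the gene, at the CpG-rich inner start shown above, and 0 of 4 H3K4me3 lists had a summit within 1000 bp of the outer, TATA-bearing start (chromosome 4, 45965334). Within 1000 bp of that outer start, 6 of 25 arginine lists had a summit, beside 19 at the inner start (45972233), and H3K27ac had a summit at the outer start in both P14 lists. For Snd1, H3K4me3 lay 5355 to 5398 bp inside, at the start near 28480429, and 20 of 25 arginine lists had a summit within 1000 bp of it. However, the P7 H4R3me2a summit with the smallest p in Snd1 lay 372935 and 372693 bp inside the gene in the 2 lists that had one, near a start at 28848907.

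For Tdrd9 the arginine marks and H3K4me3 lay apart. H3K4me3 was present at P14 only, 90 and 100 bp after the first start (chromosome 12, 111971559). Within 1000 bp of that start, 4 of 25 arginine lists had a summit. Most of its arginine summits with the smallest p lay 89214 to 94144 bp inside the gene, on either side of an inner start at 112063154. When only starts with an H3K4me3 summit within 1000 bp at P14 were used, an alternative chosen after seeing the data, Tdrd9 was marked by no arginine mark at either age, while 10 of 50 pairs at P7 and 31 of 50 at P14 were marked over all readers. Among the 14154 protein-coding genes with such a start the share per mark was 11.0% to 22.2% at P7 and 39.6% to 68.2% at P14.

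**Figure D5:**
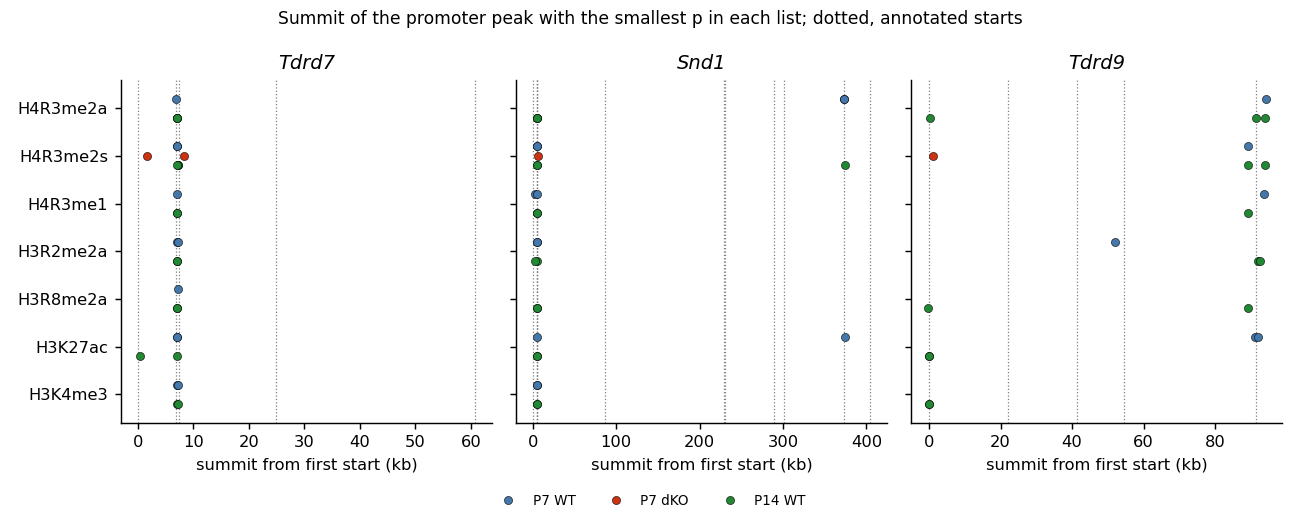
Position of the promoter peak with the smallest p in each list, in kb from the first annotated start, for Tdrd7, Snd1 and Tdrd9, by mark (rows) and by age and genotype (colours). Dotted lines are annotated starts. Tdrd7 summits gather near 7.1 kb, Snd1 summits near 5.4 kb with a few far inside the gene, and Tdrd9 H3K4me3 lies at its first start with most arginine summits far inside the gene.

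The last comparison set H4R3me2s in Prmt1-dKO testes beside WT at P7. H4R3me2s is the symmetric mark on the residue that PRMT1 methylates asymmetrically. In WT it marked Tdrd7, Tdrkh, Smn1 and Snd1 (4 of 10, with 17.8% of protein-coding genes) and in Prmt1-dKO it marked Tdrd5, Tdrd7 and Tdrd3 (3 of 10, with 9.82%). With both lists required, only Tdrd7 was in both sets, at different places. Its WT summits lay 7155 and 7071 bp from the first start, at the inner promoter, and its Prmt1-dKO summits lay 8279 and 1671 bp from it. The Tdrd5 summit with the smallest p in each Prmt1-dKO list lay over 40 kb inside the gene. With a peak in at least 1 list instead, WT had 6 readers, beside 49.0% of protein-coding genes. Prmt1-dKO then had 8 readers, beside 40.7%, and these included the 6 of WT. The Prmt1-dKO lists held 33941 and 28221 peaks, and the WT lists 19981 and 36145. Over the peaks with the smallest p at each reader, −log10 q reached 0.514 in the Prmt1-dKO lists and 1.70 in the WT lists. With only the starts that had H3K4me3 at P14, 3 readers were marked in WT (Tdrd7, Tdrkh and Snd1) and 1 in Prmt1-dKO (Tdrd3), beside 22.2% and 10.1% of protein-coding genes with such a start. At a q of at most 0.01, 0 readers were marked in either genotype, where 1.56% of protein-coding genes were marked in WT and 0.246% in Prmt1-dKO. The difference carries no test with 2 lists a genotype.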

How the data were processed

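Gene tables of 10 RNA libraries and 33 CUT&Tag peak lists were analysed. The authors used fastp 0.23.2 for trimming, STAR for mapping to mm10 and RSEM for estimates per gene, so the deposited values are expected counts, TPM, FPKM and, per gene and library, a mean transcript length (a value in bases). They called peaks with MACS2 2.1.0 in each sample, and each deposited list gives the fold enrichment as a ratio, −log10 p and −log10 q. Peak names carry a p of 0.005, or a q of 0.05 for H3K4me3.

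Expected counts were rounded (8.5% were not whole), filtered with filterByExpr, scaled by TMM and tested over all genes with edgeR 4.0.16 (quasi-likelihood, Benjamini-Hochberg). A gene passed at an FDR below 0.05. DESeq2 1.42.0, the tool the authors used, was an alternative, and edgeR was checked on simulated data. SE is the log2 fold change divided by the root of F. Of 55401 identifiers, 55141 matched GENCODE vM21 without version. The study calls its replicates biological. Peaks were placed by summit. No fold enrichment is set against one from another list.

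The genes, the gene lists, the motifs and the alternatives were chosen with earlier results of these data known. All 10 genes and Prmt1 are named. Of other lists, up to 4 passing genes with the smallest p are named, or else up to 2 with the smallest p. Protein sequences were not analysed here.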

Additional observations from a re-analysis of the deposited data

Results flagged for a closer look

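The genotype difference of Tdrd1 and Tdrd9 differed between sorted spermatogonia and whole testes by the interaction test of edgeR over all 10 libraries. For Tdrd1 the difference was 1.13 on the log2 scale (FDR = 0.00582), with both sorted Prmt1-dKO libraries above both WT libraries, and it stayed under the threshold in every alternative run, the length offset included. Tdrd6 was also picked out, but it entered the fit only through the sorted Prmt1-dKO libraries in which it is high, so this is not counted as a test: the fitted value was 6.67 (FDR = 0.0152), which depends on the prior count since the WT sorted libraries held 0 counts, and it did not pass with the length offset (FDR = 0.135). For Tdrd9 the difference was 0.82 (FDR = 0.0316). It did not pass with the transcript length offset, under RLE size factors, without the low count filter, or without any one of the bulk libraries. It passed with DESeq2 (0.69), as did 23.8% of all genes. Without sorted WT replicates 1 and 2 it was 0.91 and 0.76, and without sorted Prmt1-dKO replicates 1 and 2 it was 0.77 and 0.89. With 1 sorted library of a genotype left, these fits cannot decide whether it passes.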

How the results depend on the processing

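Of the counts recomputed under the alternatives, 140 kept their value within 1.5 times and 30 did not. No result past its threshold in the main fit changed sign. Results below the threshold in the main fit did change sign. Tdrd3 in bulk went from -0.09 to 0.39 with the length offset. Without sorted WT replicate 2, Tdrd3 went from -0.34 to 0.86 in sorted cells and from -0.16 to 1.03 in the interaction. Smn1 in sorted cells went from 0.44 to -0.12 without that library. Counts of readers include Tdrd6 for Smart-seq2 and the interaction. The transcript length offset and the restriction to starts with H3K4me3 were chosen after seeing the data. In bulk RNA-seq 3158 genes passed, 1175 of them with a change of at least 2-fold, and leaving out 1 library gave 1365 to 5362 (1365, 1437 and 1758 without WT replicates 1, 2 and 3, and 5362 without Prmt1-dKO replicate 2). Readers passing went from 0 to 1 (Snd1) under DESeq2, and from 0 to 1 over the left-out libraries (without Prmt1-dKO replicate 2). In Smart-seq2, 0 genes and 0 readers passed, DESeq2 gave 2468 and 1, and leaving out 1 library gave 0 to 9191 genes and 0 to 7 readers (9191 and 7 without WT replicate 1, 7839 and 3 without WT replicate 2). For the interaction 3722 genes and 3 readers passed, the length offset left 1 reader, and leaving out 1 library gave 2590 to 8886 genes and 2 to 6 readers (8886 and 6 without sorted WT replicate 1, 7634 and 5 without sorted WT replicate 2). Where a sorted genotype kept 1 library, that library is assumed to vary like the others. The causes were not tested.

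With the replicate number as a block, 2253 genes passed in bulk and 0 in Smart-seq2, with 0 readers in both. Samples with the same number deviated together with r of 0.082, -0.221 and -0.119 in bulk and 0.018 in Smart-seq2, so the numbers were not taken as a pairing.

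For promoter peaks, a q of at most 0.01 left 43 of 81 pairs of gene and group, 0 of 13 arginine pairs at P7, 19 of 35 at P14, and 0 readers with H4R3me2s at P7 in either genotype, beside 0.474% to 1.56% of protein-coding genes per arginine mark at P7 and 6.55% to 28.3% at P14. With at least 1 list, 25 arginine pairs were marked at P7 (32.9% to 49.0% of genes per mark). The 3 readers with H4R3me2s in Prmt1-dKO became 1 with a promoter of 1000 bp (6.31% of genes), 1 with lists of equal length (4.18%), 1 with starts that had H3K4me3 (10.1%), 8 with at least 1 list (40.7%), and 5 to 6 from the single list left (5 without replicate 1, 23.1%, and 6 without replicate 2, 27.5%). The 4 readers with H4R3me2s in WT stayed 4 with a promoter of 1000 bp (13.7%) and became 3 with lists of equal length (11.4%). They were 3 with starts that had H3K4me3 (22.2%) and 6 with at least 1 list (49.0%). Read depth was not given for the peak lists, which limits comparisons between ages.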
